A study of Mus musculus with 8 samples.

Results

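Death receptor signalling and the inhibitor of apoptosis proteins (IAPs) were followed through the first 120 min of macrophage activation. The members, 10 genes, were taken by symbol from a table of 23141 genes: the death receptor Fas, its adaptor Fadd, the initiator caspase Casp8 and its catalytically inactive homologue Cflar (c-FLIP), the IAPs Birc2 (cIAP1), Birc3 (cIAP2) and Xiap, and the receptor-interacting kinases Ripk1, Ripk2 and Ripk3. The RNA came from RAW264.7 cells, an established mouse macrophage line, sequenced as 8 libraries with 1 library per time point. An untreated culture (0 min) was set beside cultures given 100 ng/ml bacterial lipopolysaccharide (LPS) for 15, 30, 45, 60, 75, 90 or 120 min, and no genetic alteration or second agent is named for any of them. The labels name the RNA fraction as cytoplasmic and the molecule as total RNA, and the extraction they describe names no fractionation step.

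LPS is sensed by Toll-like receptor 4, which drives NF-κB and can also, through the adaptor Trif, reach Ripk1 and Ripk3. Ligand-bound death receptors recruit Fadd and caspase-8, and the active caspase starts apoptosis. c-FLIP joins the same complex and restrains caspase-8. The cIAPs are ubiquitin ligases that modify Ripk1 at the tumour necrosis factor (TNF) receptor and so favour survival signalling, whereas Xiap binds and blocks active caspases. Where caspase-8 is inactive, Ripk1 and Ripk3 can start necroptosis, a lytic form of cell death. Ripk2 has another task and relays signals from the peptidoglycan sensors Nod1 and Nod2.

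The genes fell into 3 patterns. Transcripts of Fas, Cflar, Birc3, Ripk2, Xiap and Birc2 rose, by 11.4-fold for Fas and 9.02-fold for Cflar at 120 min and by less than that for the other members. Fadd fell to 0.568 of its level at 0 min. Casp8, Ripk1 and Ripk3 passed the test at no time. A gene was called when its normalized count differed from the 0 min library by more than 0.5 on the log2 scale with an unadjusted p below 0.05 in an exact negative binomial test, a rule that the study's methods set. With 1 library per time point no difference has a replicate check, and the test compares 2 libraries, not 2 conditions. Normalized counts are counts divided by a size factor per library, and the 95% intervals given with counts and ratios cover counting error only.

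The number of members called rose with time. At 15 min 0 of the 10 were called (lowest unadjusted p of 0.39, for Cflar, in the exact negative binomial test), where 0.324% of the 10492 genes whose mean normalized count reached 100 were called higher and 0.152% lower. At 30 min Cflar was called higher, against 1.29% of all such genes higher and 0.172% lower. At 45 min Birc3, Cflar and Xiap were called higher, against 4.6% higher and 1.88% lower. At 60 min the 3 members called were Birc3, Cflar and Fas, against 4.05% of genes higher and 3.15% lower. At 75 min 4 members were higher, against 5.93% higher and 4.39% lower. At 90 min 5 members were higher and 1 lower, against 6.97% and 5.63% of genes. At 120 min 6 members were higher and 1 lower, against 9.27% and 8.52%. After Benjamini-Hochberg adjustment over all genes, 4 members kept their call at 120 min (Birc3, Cflar, Ripk2 and Fas), whereas Birc2, Xiap and Fadd did not. The 10 members had median log2 ratios to 0 min of 0.30 at 60 min and 0.89 at 120 min, beside -0.01 at both times over all genes with such a mean. All 10 members had a mean above that limit, Fas with the lowest mean of 327.

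**Figure D1:**
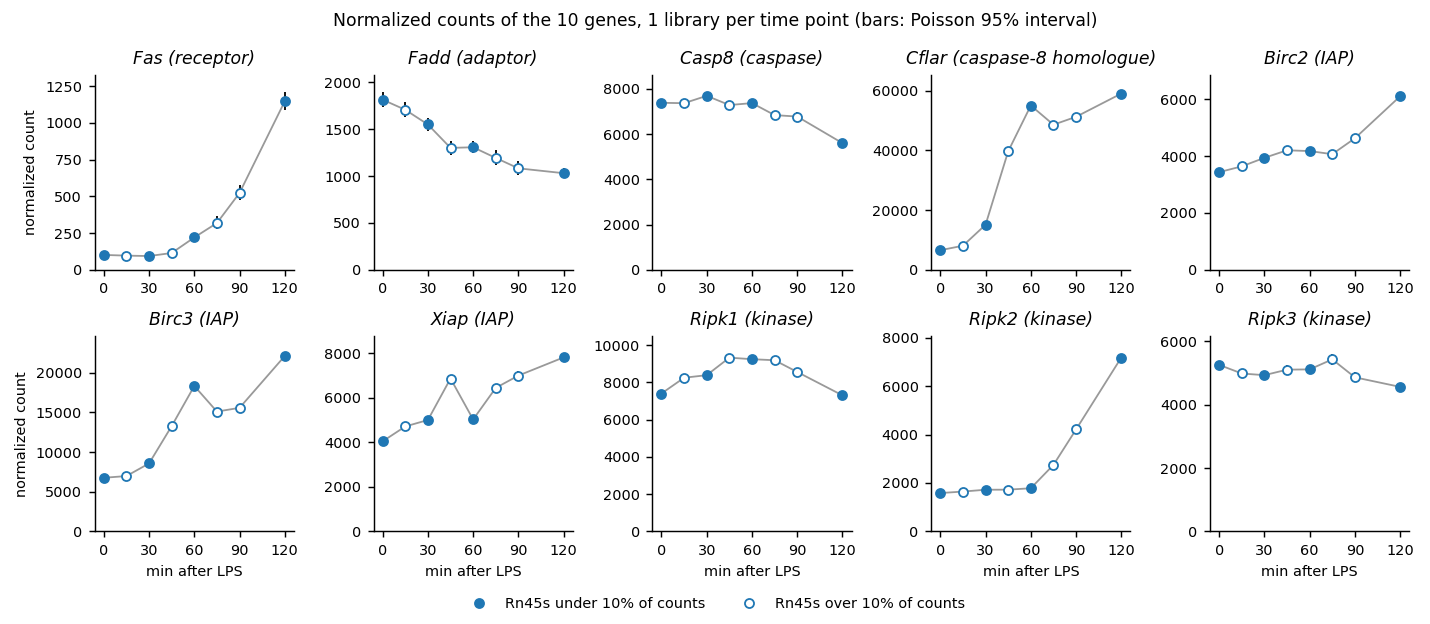
Normalized count (y axis, from 0) of each of the 10 genes against minutes after LPS (x axis), with 1 point per library and exact Poisson 95% intervals, which are smaller than the point for most values. Filled points are libraries with 8.18 to 9.11% of counts on ribosomal Rn45s and open points those with 13 to 20.5%. Fas and Ripk2 climbed late, Cflar climbed before 60 min and stayed high, and Fadd declined.

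Fas, the cell surface receptor that Fas ligand engages, had the lowest counts of the 10 genes at 0 min and the highest ratio at 120 min. Its normalized counts were 101, 96.1, 93.3 and 114 at 0, 15, 30 and 45 min. They were then 219.9, 318, 523 and 1147 at 60, 75, 90 and 120 min. The Poisson intervals of the first 4 libraries overlapped, and every later library was above all earlier ones. Its 60 min library was 2.18-fold (95% interval 1.74 to 2.74) above 0 min, the 90 min library 5.18-fold (4.21 to 6.41), and the 120 min library 11.4-fold (9.41 to 13.8), a log2 ratio of 3.51. The 60 min call had an unadjusted p of 0.0053 and an adjusted p of 0.18, and at 120 min the adjusted p was 7.0e-15 in the exact negative binomial test. The 60 min call was lost on the spike-in scale and with the dispersion trend of edgeR. Between neighbouring time points, the steps from 45 to 60 min (1.93-fold) and from 90 to 120 min (2.19-fold) were called. These values rest on 118 reads at 0 min and 1415 at 120 min, so the Fas ratio has the widest counting interval of the members.

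Fadd, the adaptor that links Fas to caspase-8, moved the other way. Its normalized counts were 1816, 1708, 1551 and 1301 at 0, 15, 30 and 45 min. They were 1308, 1194, 1083 and 1031 at 60, 75, 90 and 120 min. Each value was below the one before it, apart from that of 60 min, which was slightly above that of 45 min. Neighbouring libraries had Poisson intervals without overlap only from 15 to 30 and from 30 to 45 min. No step between neighbouring libraries was called. The 60 min library had 0.72 (0.673 to 0.77) of the 0 min level and was not called. Those of 90 and 120 min had 0.596 (0.55 to 0.646) and 0.568 (0.529 to 0.609) of it and were called. The 120 min call had an unadjusted p of 0.022 and an adjusted p of 0.2 in the exact negative binomial test, and it was lost with the dispersion trend of edgeR. The gene lies at chr7:144578323-144582441 (GRCm38), where the annotation also lists an antisense transcript, and no strand setting is stated for the counting.

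Casp8, the initiator caspase, varied little. Its normalized counts were 7388, 7372, 7697 and 7289 at 0, 15, 30 and 45 min, followed by 7375, 6844, 6779.6 and 5603 at 60, 75, 90 and 120 min. The 120 min library was the lowest, at 0.758 (0.735 to 0.783) of 0 min, and was not called (unadjusted p of 0.25 in the exact negative binomial test).

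Cflar, the gene of the caspase-8 inhibitor c-FLIP, had the earliest call of the 10 genes. Its normalized counts were 6542, 8043, 15072 and 39659 at 0, 15, 30 and 45 min. They reached 54990.4 at 60 min and were 48558, 51209 and 58987 at 75, 90 and 120 min. All libraries from 45 min on lay far above those of 0 to 30 min. Relative to 0 min the libraries of 30, 45, 60 and 120 min were 2.3-fold (2.24 to 2.37), 6.06-fold (5.91 to 6.21), 8.41-fold (8.21 to 8.61) and 9.02-fold (8.81 to 9.23) higher. The call at 30 min had an unadjusted p of 0.00064 and an adjusted p of 0.12, and from 45 min on the adjusted p was at most 6.9e-10 in the exact negative binomial test. Between neighbouring libraries, the steps from 15 to 30 min (1.87-fold) and from 30 to 45 min (2.63-fold) were called, and the later steps were not. The 120 min library differed from the 60 min library by 1.07-fold (1.06 to 1.08), which was not called.

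Casp8 and Cflar are neighbours on chromosome 1. The annotation places Cflar at chr1:58711311-58758884 and Casp8 at chr1:58795233-58847503, with 36.3 kb between them. The ratio of Cflar to Casp8 counts within 1 library, which no scaling of libraries can move, was 0.885 (0.859 to 0.913) at 0 min and 1.09 at 15 min. It was 1.96, 5.44 and 7.46 (7.29 to 7.63) in the libraries of 30, 45 and 60 min, and 7.1, 7.55 and 10.5 (10.3 to 10.8) in those of 75, 90 and 120 min. At 120 min the ratio was thus 11.9 times that at 0 min. The 2 promoter windows are shown because these adjacent genes had unlike time courses. Each window runs from 250 bases before to 50 bases after the annotated start, 5′ to 3′ on the gene's strand, and capitals mark CG dinucleotides (RefSeq, GRCm38.p6). The Cflar window, chr1:58711241-58711540 on the plus strand, has 45% GC and 12 CG dinucleotides. The Casp8 window, chr1:58802252-58802551 on the plus strand, has 42% GC and 5 CG dinucleotides. The medians over 32851 windows are 52.7% and 7. Both starts lie inside the annotated spans of their genes, that of Casp8 further from the edge.
Cflar: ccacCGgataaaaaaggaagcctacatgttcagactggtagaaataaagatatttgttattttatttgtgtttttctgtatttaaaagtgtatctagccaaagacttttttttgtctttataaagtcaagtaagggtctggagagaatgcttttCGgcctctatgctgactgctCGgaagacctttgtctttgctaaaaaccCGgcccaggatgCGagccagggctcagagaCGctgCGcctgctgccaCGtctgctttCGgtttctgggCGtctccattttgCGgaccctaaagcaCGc
Casp8: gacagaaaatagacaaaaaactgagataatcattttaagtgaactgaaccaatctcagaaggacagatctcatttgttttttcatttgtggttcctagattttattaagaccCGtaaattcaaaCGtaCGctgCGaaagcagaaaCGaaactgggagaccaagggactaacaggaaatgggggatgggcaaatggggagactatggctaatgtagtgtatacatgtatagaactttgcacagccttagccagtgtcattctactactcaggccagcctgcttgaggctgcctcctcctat

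**Figure D2:**
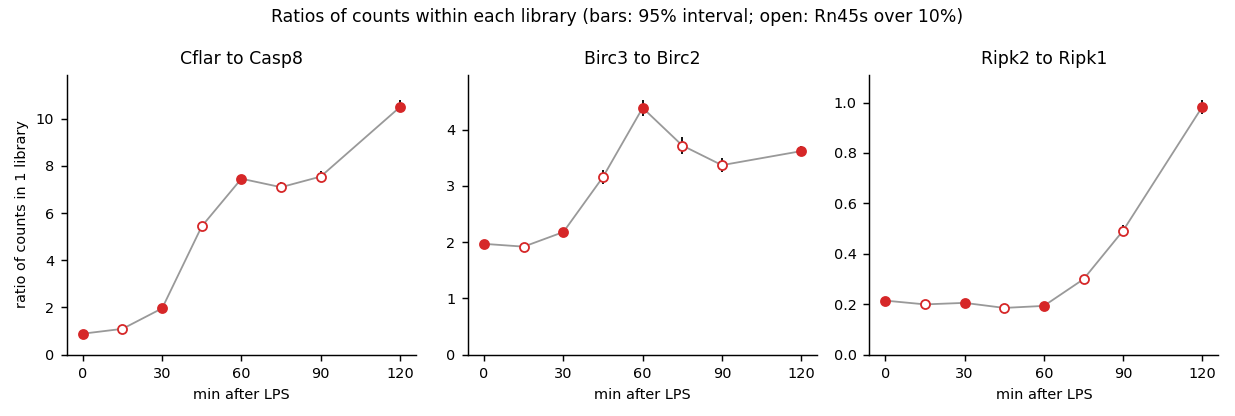
Ratio of the counts of 2 genes within each library (y axis, from 0) against minutes after LPS (x axis) for Cflar to Casp8, Birc3 to Birc2 and Ripk2 to Ripk1, with exact 95% intervals and open points for the libraries with 13 to 20.5% Rn45s. The first ratio reached 7.46 by 60 min, the second peaked there at 4.39, and the third stayed at or below 0.214 through 60 min and was 0.984 at 120 min.

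The 3 IAP genes had their highest count in the 120 min library, with unlike sizes of change. Birc3, the cIAP2 ubiquitin ligase gene, had normalized counts of 6758, 6976, 8568 and 13281 at 0, 15, 30 and 45 min, and of 18339, 15111, 15582 and 22127 at 60, 75, 90 and 120 min. It was called in every library from 45 min on, with ratios of 1.97 (1.91 to 2.02), 2.71 (2.64 to 2.79) and 3.27 (3.19 to 3.36) in the libraries of 45, 60 and 120 min. The adjusted p was 0.0034 at 60 min and 6.9e-05 at 120 min in the exact negative binomial test. The 75 min library was 0.824 times (0.805 to 0.843) the 60 min library, a step that was not called.

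Birc2, the cIAP1 gene beside it, had normalized counts of 3435, 3638, 3939 and 4204 at 0, 15, 30 and 45 min, and of 4176, 4067, 4626 and 6105 at 60, 75, 90 and 120 min. Only its 120 min library was called, at 1.78-fold (1.71 to 1.85), with an unadjusted p of 0.018 and an adjusted p of 0.17 in the exact negative binomial test. That call was lost with libraries scaled by total counts (log2 ratio of 0.63), by total counts without Rn45s (0.64) or by spike-in transcripts (0.72). The count ratio of Birc3 to Birc2 was 1.97 (1.89 to 2.04), 1.92, 2.18 and 3.16 in the libraries of 0, 15, 30 and 45 min. In those of 60, 75, 90 and 120 min it was 4.39 (4.25 to 4.53), 3.72, 3.37 and 3.62 (3.53 to 3.72), so the 60 min library stood above all others in this ratio.

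The pair lies on the minus strand of chromosome 9, Birc2 at chr9:7818226-7837131 and Birc3 at chr9:7847468-7873205, 10.3 kb apart. Their promoter windows are shown because the neighbours code for related proteins, differ in response and differ in base composition. Birc2 has 2 annotated windows, of which the upstream one is printed. That window, chr9:7837008-7837307, has 67% GC and 34 CG dinucleotides, and the other, chr9:7836757-7837056, has 60% GC and 21. The Birc3 window, chr9:7873121-7873420, has 43% GC and 7 CG dinucleotides, as many as the median window. Both printed starts lie inside the annotated spans of their genes.
Birc2: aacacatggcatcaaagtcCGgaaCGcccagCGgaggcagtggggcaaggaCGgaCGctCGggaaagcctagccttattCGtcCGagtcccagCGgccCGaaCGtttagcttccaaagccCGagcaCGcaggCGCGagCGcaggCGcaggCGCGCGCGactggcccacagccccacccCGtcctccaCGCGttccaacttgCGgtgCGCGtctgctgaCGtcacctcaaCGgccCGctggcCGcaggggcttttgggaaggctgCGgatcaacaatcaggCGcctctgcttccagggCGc
Birc3: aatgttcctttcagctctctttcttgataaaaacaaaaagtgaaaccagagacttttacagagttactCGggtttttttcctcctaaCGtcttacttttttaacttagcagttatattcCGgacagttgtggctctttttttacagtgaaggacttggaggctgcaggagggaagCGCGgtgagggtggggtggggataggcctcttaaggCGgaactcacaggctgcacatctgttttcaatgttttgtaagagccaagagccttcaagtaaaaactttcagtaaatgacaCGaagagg

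Xiap, the caspase-binding IAP, had normalized counts of 4049, 4718, 5008 and 6874 at 0, 15, 30 and 45 min, and of 5032, 6454, 7006 and 7825 at 60, 75, 90 and 120 min. The order of its values was not smooth: the 45, 75, 90 and 120 min libraries were high and the 60 min library was close to that of 30 min. It was called at 45 min (1.7-fold, 1.63 to 1.76), 90 min (1.73-fold, 1.66 to 1.8) and 120 min (1.93-fold, 1.87 to 2), and not at 60 min (1.24-fold) or 75 min (1.59-fold, unadjusted p of 0.063 in the exact negative binomial test). The adjusted p was 0.74, 0.34 and 0.085 at its 3 called times in that test. The 45, 75 and 90 min libraries are also 3 of the 4 with a high share of Rn45s, and against the 15 min library, the fourth of them, the log2 ratios of Xiap were 0.54, 0.45 and 0.57 and were not called. Among the other 4 libraries, its log2 ratio to 0 min was 0.31 in both the 30 and 60 min libraries and 0.95 in the 120 min library. Xiap, with 6485 unique 58-mers, is among the long genes. The longest of 3 length classes had a median log2 ratio to 0 min of 0.17 at 45 min and 0.08 at 60 min. At 75, 90 and 120 min it was 0.14, 0.11 and 0.13. The part of gene length or of the Rn45s share in the 45 min value was not tested. The 120 min call was lost on the scale of total counts (log2 ratio of 0.75).

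Ripk2, the kinase that acts below Nod1 and Nod2, was first called at 75 min. Its normalized counts were 1583, 1645, 1720.4, 1723 and 1782 at 0, 15, 30, 45 and 60 min, and then 2747, 4213 and 7187 at 75, 90 and 120 min. The first 5 libraries lay between 1583 and 1782, and the last 3 lay above them without overlap. Relative to 0 min the libraries of 60, 75, 90 and 120 min were 1.13-fold (1.06 to 1.2), 1.74-fold (1.63 to 1.85), 2.66-fold (2.51 to 2.82) and 4.54-fold (4.32 to 4.78) higher, the last 3 of them called. Their adjusted p was 0.44, 0.004 and 1.6e-07 in the exact negative binomial test, and the step from 90 to 120 min (1.71-fold) was called.

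Ripk1 and Ripk3, the kinases of the TNF receptor complex and of necroptosis, were called in no library. Ripk1 had normalized counts of 7401, 8248, 8385 and 9326 at 0, 15, 30 and 45 min, and of 9243, 9187, 8557 and 7301 at 60, 75, 90 and 120 min. Its libraries were highest from 45 to 75 min and the 120 min library was at 0.986 (0.958 to 1.02) of 0 min. At 45, 60 and 75 min the log2 ratios of Ripk1 to 0 min were 0.33, 0.32 and 0.31. With 6415 unique 58-mers, Ripk1 is in the longest length class, whose medians at those times were 0.17, 0.08 and 0.14. The part of gene length in the Ripk1 values was not tested. Ripk1 overlaps other annotated genes, and the authors discarded reads that matched more than 1 gene symbol. With no strand setting stated for the counting, reads of an overlapping transcript outside the mapped set may not be separated. Ripk3 had normalized counts of 5259, 4987, 4934 and 5108 at 0, 15, 30 and 45 min, and of 5117, 5433, 4866 and 4564 at 60, 75, 90 and 120 min. Its highest and lowest libraries differed by 0.25 on the log2 scale, the smallest range of the 10 genes. The 120 min library was at 0.868 (0.837 to 0.9) of 0 min. Relative to Ripk1, Ripk2 had a count ratio of 0.214 (0.203 to 0.225) at 0 min and of 0.193, 0.299, 0.492 and 0.984 (0.956 to 1.01) in the libraries of 60, 75, 90 and 120 min.

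Levels can be compared between genes only per length, as reads per kb of unique 58-mers scaled to the total count of the library (rpkm). Between 96.3 and 100.0% of the 58-mers of each member were unique to it, Birc2 and Birc3 included at 98.3 and 97.8%. At 0 min Casp8 was highest at 25.2 rpkm (24.7 to 25.7), followed by Birc3 at 23.6 (23.1 to 24.1) and Ripk3 at 23.1 (22.6 to 23.7), and the Poisson intervals of Birc3 and Ripk3 overlapped. Cflar was at 14.5 rpkm, Ripk1 at 10.3, Birc2 at 9.53, Xiap at 5.57 (5.41 to 5.73) and Ripk2 at 5.36 (5.12 to 5.61), the last 2 with overlapping intervals. Fadd was at 4.26 rpkm (4.08 to 4.44) and Fas at 0.518 rpkm (0.429 to 0.62). This order depends on the length used. With the longest transcript as length, Cflar was at 8.88 rpkm at 0 min, below Ripk1 (10.2) and Birc2 (9.2). Birc3 (20.7) was then below Ripk3 (23.9). Later time points were not computed with that length.

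At 120 min the order had changed. Cflar was at 114 rpkm (113 to 114), Birc3 at 67.2, Ripk2 at 21.2 (20.7 to 21.6), Ripk3 at 17.5 and Casp8 at 16.6. Birc2 was at 14.7 rpkm, Xiap at 9.36, Ripk1 at 8.83, Fas at 5.12 (4.85 to 5.39) and Fadd at 2.1 (1.99 to 2.22). With length counted as unique sequence, as above, Cflar led the members from 30 min on. At 30 min it was at 32.7 rpkm, beside 29.4 for Birc3. Its unique length was 4030 and its longest transcript 6572, whereas those of Birc3 were 2553 and 2909. The lead of Cflar at 30 min therefore depends on the length used, like the order at 0 min. Fas was above Fadd at 120 min, and at 90 min, where the values were 2.24 and 2.12 rpkm, their intervals overlapped. Of the 22544 genes with a length, 19.8% had a higher rpkm than Cflar at 0 min and 2.91% at 120 min. For Fas these shares were 45.4 and 30.8%, for Ripk2 31.8 and 14.2%, and for Fadd 34.2 and 38.2%. The median rpkm of the members was 9.91 at 0 min and 15.7 at 120 min.

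**Figure D3:**
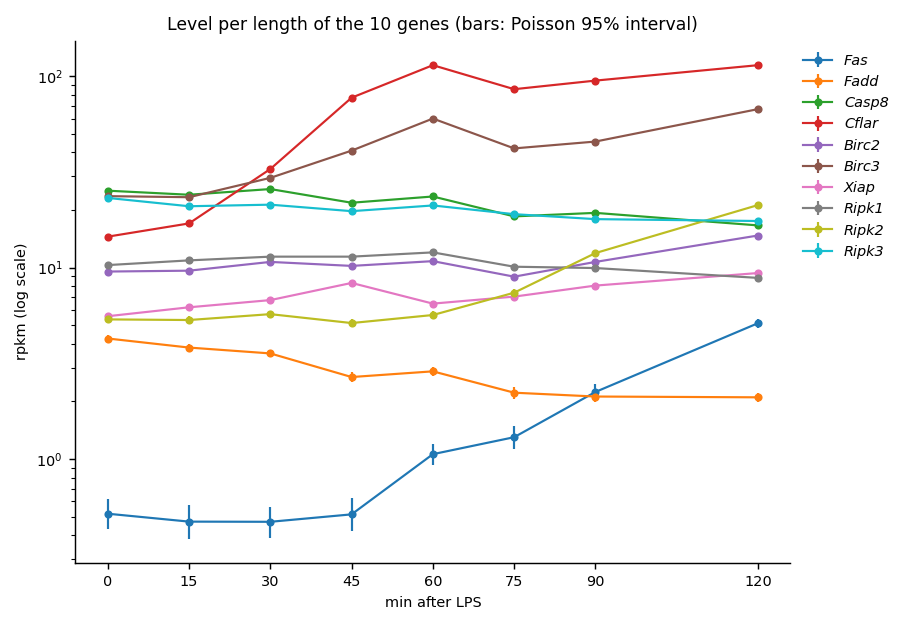
Level per length (rpkm, log axis) of the 10 genes against minutes after LPS, with 1 library per point and exact Poisson 95% intervals. Cflar moved from the fourth place at 0 min (14.5 rpkm) to the first at 120 min (114 rpkm), and the lines of Fas and Fadd crossed near 90 min.

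Against the genes whose mean normalized count reached 100, Cflar at 60 min (log2 ratio of 3.07) had 56 genes above it, Birc3 (1.44) had 175 and Fas (1.12) had 242. At 120 min 71 genes had a ratio above that of Fas (log2 of 3.51) and 84 above that of Cflar (3.17). Ripk2 (2.18) then had 162 genes above it, Birc3 (1.71) 241, Xiap (0.95) 586 and Birc2 (0.83) 739. Fadd (-0.82) had 7.08% of genes below it, and Casp8 (-0.40) had 18%. By the study's rules for maxima and minima along the time course, Birc2, Birc3, Xiap, Cflar, Ripk2 and Fas each had 1 maximum at 60 min or later, a class that held 9.33% of these genes. Fadd had 1 minimum at 60 min or later, as did 9.89%. Casp8, Ripk1 and Ripk3 had neither, as did 77.8% of genes, and 22.2% had any maximum or minimum. The extremum of all 7 was placed in the 120 min library, the last one, so the data do not show a later decline or recovery.

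**Figure D4:**
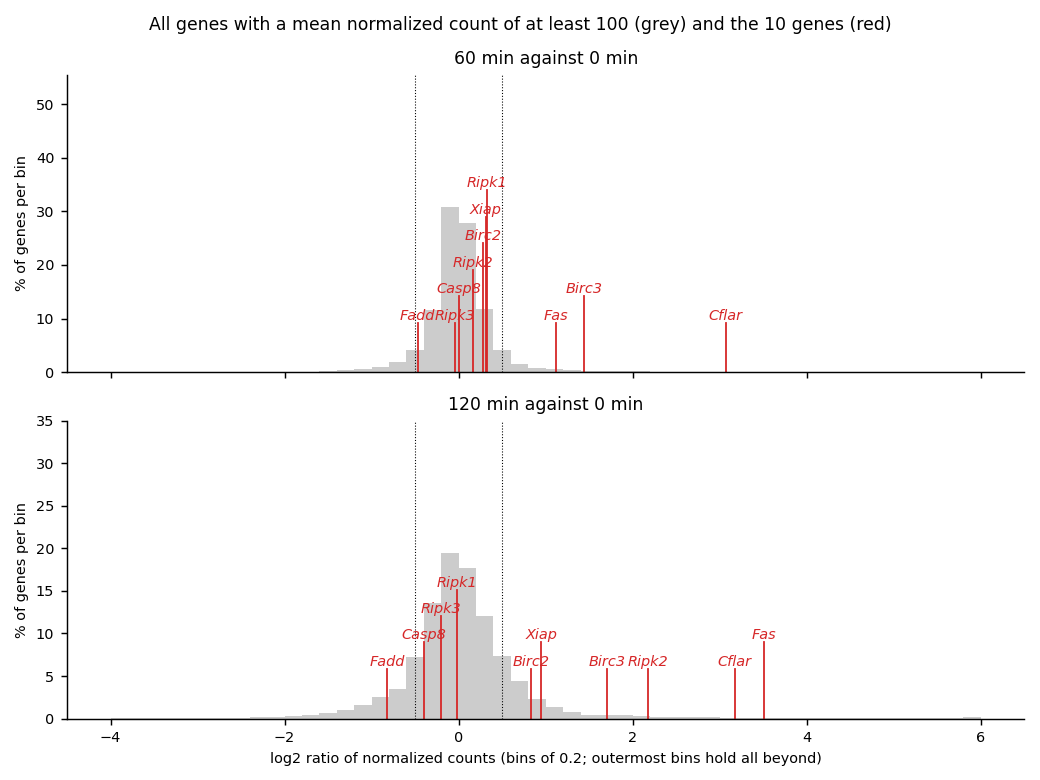
Log2 ratio of normalized counts to 0 min (x axis, bins of 0.2) at 60 min (top) and 120 min (bottom) for all genes whose mean normalized count reached 100 (grey bars, percent of genes) and for the 10 genes (red lines, whose height has no meaning). Dotted lines mark the log2 limit of 0.5. Fas, Cflar, Ripk2 and Birc3 stand in the right tail at 120 min, and Fadd in the left.

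Total counts ranged from 100229997 to 159036125 per library. The 8 macrophage markers found in the table had at least 100 counts in every library, and no fibroblast or epithelial marker had more than 1 count. The libraries of 15, 45, 75 and 90 min had 13 to 20.5% of their counts on Rn45s and the other 4 had 8.18 to 9.11%. No label ties this split to a batch. The 60 and 120 min comparisons with 0 min lie within the second set. Within the first set, relative to its 15 min library, the log2 ratio at 90 min was 2.67 for Cflar, 1.36 for Ripk2, 1.16 for Birc3 and -0.66 for Fadd, beside 2.97, 1.41, 1.21 and -0.75 relative to 0 min. The first 3 were called in both comparisons, whereas Fadd was called relative to 0 min (unadjusted p of 0.041) and not relative to 15 min (0.069) in the exact negative binomial test.

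Promoter windows of 3 members hold a searched motif. The consensus of NF-κB sites, the AP-1 motif TGANTCA and the cAMP response element TGACGTCA were searched on both strands of 13 windows of 9 members, and no window was given for Ripk2. The NF-κB consensus was in 1 of the 13, a Xiap window at chrX:42068148-42068447 (GGGACCCTCC, at base 23 counted from the start), and in 8.46% of all windows. The AP-1 motif was in the Fas window (TGAGTCA, 211 bases before the start) and in 7.81% of all windows. The cAMP response element was in the Birc2 window printed above (TGACGTCA, 35 bases before the start), not in the other Birc2 window, and in 1.79% of all windows. That Birc2 match lies inside the annotated span of the gene. A match is a string of letters in the window and no measure of binding. The Fas window, chr19:34290409-34290708 on the plus strand, with 59% GC and 14 CG dinucleotides, is shown because Fas had the largest ratio of the members.
Fas: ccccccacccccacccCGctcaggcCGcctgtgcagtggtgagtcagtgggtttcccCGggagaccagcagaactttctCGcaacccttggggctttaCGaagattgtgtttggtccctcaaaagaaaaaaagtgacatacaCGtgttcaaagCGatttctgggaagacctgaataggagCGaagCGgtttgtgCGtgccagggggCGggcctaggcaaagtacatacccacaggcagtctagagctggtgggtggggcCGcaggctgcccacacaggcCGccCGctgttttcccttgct

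The wider pathway was described with 75 other genes in 5 lists. At 60 min 9 were called higher and 0 lower, where 3.43% and 2.36% of the 15490 genes with a count in either library were called. The 0 lower calls are by the unadjusted rule of the exact negative binomial test. At 120 min 15 were higher and 6 lower, where 7.64% and 6.7% of 15663 genes were called. With libraries scaled by total counts, 11 were higher and 7 lower. The lists were chosen with earlier results of these data known.

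A list of 16 genes held death receptors, related receptors and ligands, of which 5 were higher and 1 was lower at 120 min. Tnfrsf1b and Tnfrsf12a, which code for receptors without a death domain, were included. Tnf, the ligand that LPS-treated macrophages release in quantity, was 40.3-fold (39.5 to 41.1) above 0 min. The related ligand gene Lta was 9.06-fold (5.4 to 16.3) higher, on 153 counts at 120 min. The second TNF receptor gene Tnfrsf1b was 4.92-fold higher, the Tweak receptor gene Tnfrsf12a 2.27-fold and the Trail receptor gene Tnfrsf10b 1.75-fold. The Tnfrsf10b call was lost on the scales of total counts, with or without Rn45s, and of spike-in transcripts. It was also lost with edgeR's dispersion trend, with adjustment and with a log2 limit of 1. A mean of at least 10, or the 0, 30, 60 and 120 min libraries alone, removed it too. Tnfrsf1a, the TNF receptor with a death domain, was at 0.58 (0.559 to 0.601) of 0 min and was called lower, so it and Fadd moved opposite to Fas.

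The list of the TNF receptor signalling complex, its kinases and its ubiquitin enzymes held 25 genes. The sensors Nod1 and Nod2, which are not part of that complex, were included. Of the list, 7 were higher and 1 was lower. Tnfaip3, which codes for a ubiquitin-editing enzyme that restrains NF-κB, was 39.8-fold (38 to 41.7) higher, and Traf1, an adaptor that binds the cIAPs, 36.4-fold (35 to 37.9). Nod2, the sensor upstream of Ripk2, was 9.03-fold (8.21 to 9.96) higher and had already been 4.41-fold higher at 60 min, when Ripk2 was not called. The kinase gene Ikbke was 8.12-fold and Tnip1, whose product binds that of Tnfaip3, 4.72-fold higher, whereas Tab1, a partner of the kinase Tak1, was at 0.546 of 0 min and was called lower.

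Of 12 other genes of IAP-related proteins and IAP antagonists, Birc6, a giant IAP with ubiquitin ligase activity, was higher (1.62-fold, 1.6 to 1.64, adjusted p of 0.33 in the exact negative binomial test) and 0 were lower by the unadjusted rule. The Birc6 call was lost on the scales of total counts, with or without Rn45s, of edgeR TMM factors and of spike-in transcripts. The dispersion trend of edgeR, Benjamini-Hochberg adjustment or a log2 limit of 1 removed it too. So did leaving out the 30 or the 60 min library, or keeping only those of 0, 30, 60 and 120 min. The call held with a mean of at least 10 and without the 15, 45, 75 or 90 min library. Of 16 other caspases and apoptosis effectors, Casp4, which codes for an inflammatory caspase that senses intracellular LPS, was 2.56-fold higher. Casp2 and Casp9 were both at 0.463 of 0 min and the nuclease gene Dffb at 0.562, and all 3 were called lower. Of the 6 genes called lower over the 5 lists, 3 (Casp2, Casp9 and Tlr4) kept their call with Benjamini-Hochberg adjustment, whereas Dffb, Tnfrsf1a and Tab1 did not (adjusted p of 0.19, 0.22 and 0.14 in the exact negative binomial test). Of 6 necroptosis partners, Ticam1, the gene of the adaptor Trif, was 7.27-fold (6.8 to 7.79) higher and Tlr4 was at 0.486 (0.469 to 0.505) and called lower. The median log2 ratio at 120 min was taken over the genes of each list with a mean of 10 or more. It was 0.59 for the list of death receptors, related receptors and ligands and 0.39 for the signalling complex list, which includes Nod2. It was -0.08 for the IAP-related list, -0.29 for caspases and effectors and 0.20 for necroptosis partners.

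**Figure D5:**
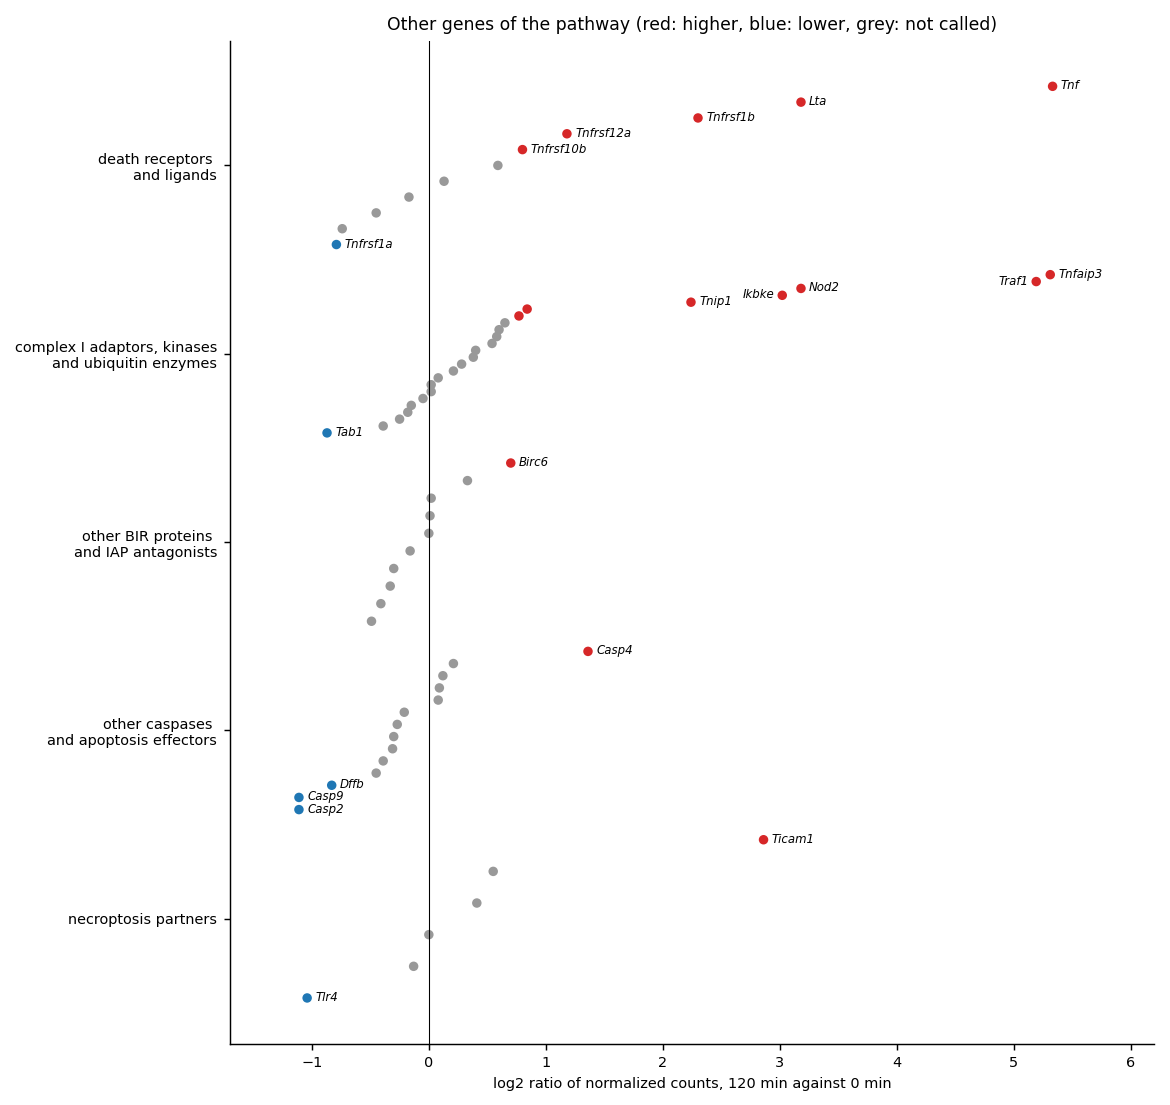
Log2 ratio of normalized counts at 120 min to 0 min (x axis) for the genes of the 5 lists whose mean normalized count reached 10, 1 point per gene and sorted within each list (y axis). Red points were called higher and blue lower, and up to 6 called genes a list are named. Tnf, Tnfaip3 and Traf1 lie above 5, and 3 of the 6 genes called lower are in the list of caspases and effectors.

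For the 4 members whose range over the libraries exceeded 1 on the log2 scale, the genes with the most similar time course were found by the root mean square distance of their log2 ratios at 7 time points, among 10480 genes. Close to Cflar were Osm (0.24) and Fosl1 (0.25). Closest to Birc3 were Cdc42ep4 (0.10), Srgn (0.16) and Zfp719 (0.16). Closest to Ripk2 were Tnfrsf1b (0.13), Gfod1 (0.15) and Itpkb (0.15), and closest to Fas were Pdgfb (0.18), Cd40 (0.29) and Ikbke (0.29). Tnfrsf1b and Ikbke are also in the pathway lists, and Tnfrsf1b shared the late rise of Ripk2 with log2 ratios of 0.23 at 60 min and 2.30 at 120 min. All points share the same 8 libraries and the same 0 min library.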

How the data were processed

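RNA of 8 RAW264.7 cultures was sequenced by the authors, 1 library for each time point. Per the labels, ribosomal RNA was removed with Ribo-Zero and libraries were made with a directional kit. The authors mapped 58-base reads with Bowtie to RefSeq transcripts of mm10, allowed 2 mismatches, discarded reads that matched more than 1 gene symbol, and deposited raw read counts per gene symbol. No strand setting is stated for the counting, so reads of a gene and of an antisense transcript outside the mapped set may not be separated. CASAVA 1.8.2 and DESeq 1.10.1 are named in the submitters' processing notes, and the version of Bowtie is not given in the sources used here.

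Of 23143 rows, 2 hold spike-in transcripts and were kept out of the genes. Size factors (median of ratios, 0.71 to 1.23), 1 parametric dispersion curve over the 8 libraries treated as replicates (0.0287 + 0.853/mean) and exact negative binomial tests of the 28 pairs of libraries were computed in Python 3.11.15 with numpy 2.4.6, numba 0.67.0 and scipy 1.17.1. They follow the settings that the study gives for DESeq. With 1 library per time point a quasi-likelihood fit has no residual degrees of freedom. The test was also run on simulated counts. Their dispersion was constant and below the fitted curve, and their changes were larger than those of Birc2, Birc3, Xiap and Fadd. That run therefore cannot show how the test performs for such changes at the spread of these data. Ratios carry exact conditional binomial intervals and levels exact Poisson intervals, both at 95% and for counting error only. Nothing in the labels gives replicate cultures. Rpkm used the 58-mers unique to a gene symbol in GENCODE transcripts (GRCm38), and coordinates and promoter windows came from RefSeq tables of GRCm38.

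All 10 members were named. Similar genes were the 3 nearest for each member with a log2 range above 1, of which 1 is not reported here. Genes of the pathway lists were named when called at 120 min, up to 6 a list. The members, lists and markers (macrophage, fibroblast, epithelial, T cell, B cell) were chosen with earlier results of these data known. T cell markers reached at most 13 counts and B cell markers 43. Alternatives were other scales (total counts with and without Rn45s, edgeR 4.0.16 TMM factors in R 4.3.3, spike-in transcripts), edgeR's dispersion trend, Benjamini-Hochberg adjustment, a log2 limit of 1, a mean of at least 10, a pseudocount of 1, the libraries of 0, 30, 60 and 120 min alone, and each library left out in turn. The spike-in scale was added after the data were seen.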

Additional observations from a re-analysis of the deposited data

How the results depend on the processing

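The count of members called at 120 min fell from 7 to 4 with Benjamini-Hochberg adjustment and to 4 with a log2 limit of 1, and the number with a maximum or minimum went from 7 to 4 under the same 2 settings. The members kept were Birc3, Cflar, Ripk2 and Fas, so Birc2, Xiap and Fadd rest on the unadjusted rule with its log2 limit of 0.5. At 120 min their log2 ratios were 0.83, 0.95 and -0.82. Their adjusted p was 0.17, 0.085 and 0.2 in the exact negative binomial test. Both settings are stricter than the main rule and can only remove calls against 0 min. Members called at 60 min numbered 3 to 3, and at 120 min 7 to 7, with any 1 other library left out. The number with an extremum was 6 to 7, and without the 120 min library Birc2 had none. The pathway genes called at 120 min numbered 20 to 21 with 1 library left out and 14 to 22 under the other alternatives. On the scale of total counts, 11 of them were higher and 7 lower, beside 15 and 6, and with adjustment or a log2 limit of 1 the split was 11 and 3. The median rpkm of members at 0 min was 9.04 with the longest transcript as length and 10.8 without Rn45s in the total, beside 9.91. Relative to the main scale, total counts lower every log2 ratio by 0.33 at 75 min and by 0.20 at 120 min, and the spike-in scale lowers them by 0.30 at 60 min and by 0.11 at 120 min. The 60 min call of Fas was lost on the spike-in scale (log2 ratio of 0.83), with edgeR's dispersion trend and with adjustment. The 120 min calls of Birc2 were lost on 3 scales, as given with its values, and those of Xiap on total counts. No call changed its direction, and on the spike-in scale the 60 min log2 ratios of Birc2 and Ripk2, not called at that time, went from 0.28 to -0.02 and from 0.17 to -0.13. No paired analysis was possible because each time point has 1 library. Depth limits Fas most, with 118 reads at 0 min.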
